A study of Mus musculus with 12 samples.

Results

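Hox, forkhead and Sox genes encode DNA-binding proteins of 3 families, and 55 of them were measured in mouse small intestine among 17175 genes. They were taken by symbol: the Hox genes of clusters A to D, the forkhead genes Foxa to Foxs and the numbered Sox genes, without Foxl1, Sox9 and Sox10. This gave 21 Hox genes (8 of cluster A, 7 of B, 4 of C and 2 of D), 26 Fox genes and 8 Sox genes. RNA-seq libraries came from distal and proximal small intestine of mice labelled Bmpr1a cKO and of wild-type (WT) mice, 3 libraries in each of the 4 groups (cKO distal, WT distal, cKO proximal and WT proximal). The product of Bmpr1a is a receptor through which cells sense bone morphogenetic proteins (BMPs), and cKO stands for conditional knockout, the removal of a gene in chosen cells. Neither the Cre driver, the strain nor the age of the mice is given by the labels, nor whether each library is a mouse of its own. P-values therefore reflect the spread of these libraries alone, and that spread may be technical. The labels share sample names between segments, so distal and proximal libraries of a genotype with the same number may come from the same mouse. The main fit treats all libraries as independent, and a fit with the sample name as a block is among the alternatives. The study's stated question was how BMP signals in the epithelium relate to villus length along the small intestine.

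Hox genes lie in 4 clusters and are used along the body axis in the order in which they lie, so that genes at one end of a cluster mark posterior tissue, the gut included. Forkhead proteins include the FoxA factors, which open chromatin in endoderm, the FoxO factors, which insulin signalling keeps out of the nucleus, and FoxM1, which drives genes of mitosis. Sox proteins bend DNA and are known as regulators of cell identity, with SoxF members in endothelium, SoxC members such as Sox4 in progenitors and SoxD members such as Sox5, Sox6 and Sox13 in cartilage, nerve and lymphoid cells.

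Depth was 11242024 to 17722756 reads per library. Values are scaled reads, the read count divided by the library's size factor, so that 1 read was worth 0.83 to 1.22. Fold changes are on the scale of log2(deposited value + 1), where a deposited value is the scaled reads plus the worth of 1 read. They therefore cannot be recomputed from the printed scaled reads with an offset of 1 alone. This scale understates changes of genes with few reads. A gene passed at a limma adjusted p under 0.05 over all 17175 genes. The labelled segments could be told apart by Slc10a2, the ileal bile acid transporter, at 1503 to 2045 scaled reads in cKO distal, 1604 to 4094 in WT distal, 4.24 to 9.32 in cKO proximal and 7.37 to 20.4 in WT proximal libraries. Markers of the intestinal epithelium summed to between 289270 and 913186 scaled reads in every library. Bmpr1a did not differ detectably between genotypes as a whole gene (log2 fold change 0.06, adjusted p = 0.852, in the distal and 0.01, adjusted p = 0.983, in the proximal segment), which checks nothing about a deletion of part of it, while the BMP-induced gene Id1 was lower in cKO in both segments (-2.65, adjusted p = 9.29e-06, and -3.59, adjusted p = 9.15e-07). The mitochondrial share of reads was 9.95 to 27.7% in cKO distal, 22.3 to 37.7% in WT distal, 9.75 to 14.8% in cKO proximal and 17.4 to 26.1% in WT proximal libraries. Y-linked transcripts (Eif2s3y, Kdm5d, Uty, Ddx3y) had 0 reads in cKO distal 1 and cKO proximal 1 and were present in the other 10 libraries, so a call that ended without that pair of libraries is named as such.

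Levels differed widely between the families. Of the 21 Hox genes, 15 averaged under 10 scaled reads and 0 averaged 100 or more, whereas 15 of the 26 Fox genes and 3 of the 8 Sox genes averaged 100 or more. A library at 0 reads occurred for 28 of the 55 genes, and a whole group at 0 for 8 Hox genes and 1 Sox gene. Per kilobase of exon, Sox13 had the highest level of the 55 genes in distal tissue, with 368 scaled reads in cKO distal, 293 in WT distal, 204 in cKO proximal and 195 in WT proximal tissue. Foxo3 had 169, 156, 258 and 224 scaled reads per kilobase in the same order of groups, the highest level in cKO proximal tissue. In WT proximal tissue Foxq1 was highest, with 253 scaled reads per kilobase. The most abundant Hox genes per kilobase were Hoxb9 in WT distal tissue, with 51.8 scaled reads, and Hoxb6 in cKO distal tissue, with 51.3. Reads of epithelial, immune and fibroblast markers were found together in these libraries. Fewer cells of a type and less RNA per cell therefore cannot be told apart.

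**Figure D1:**
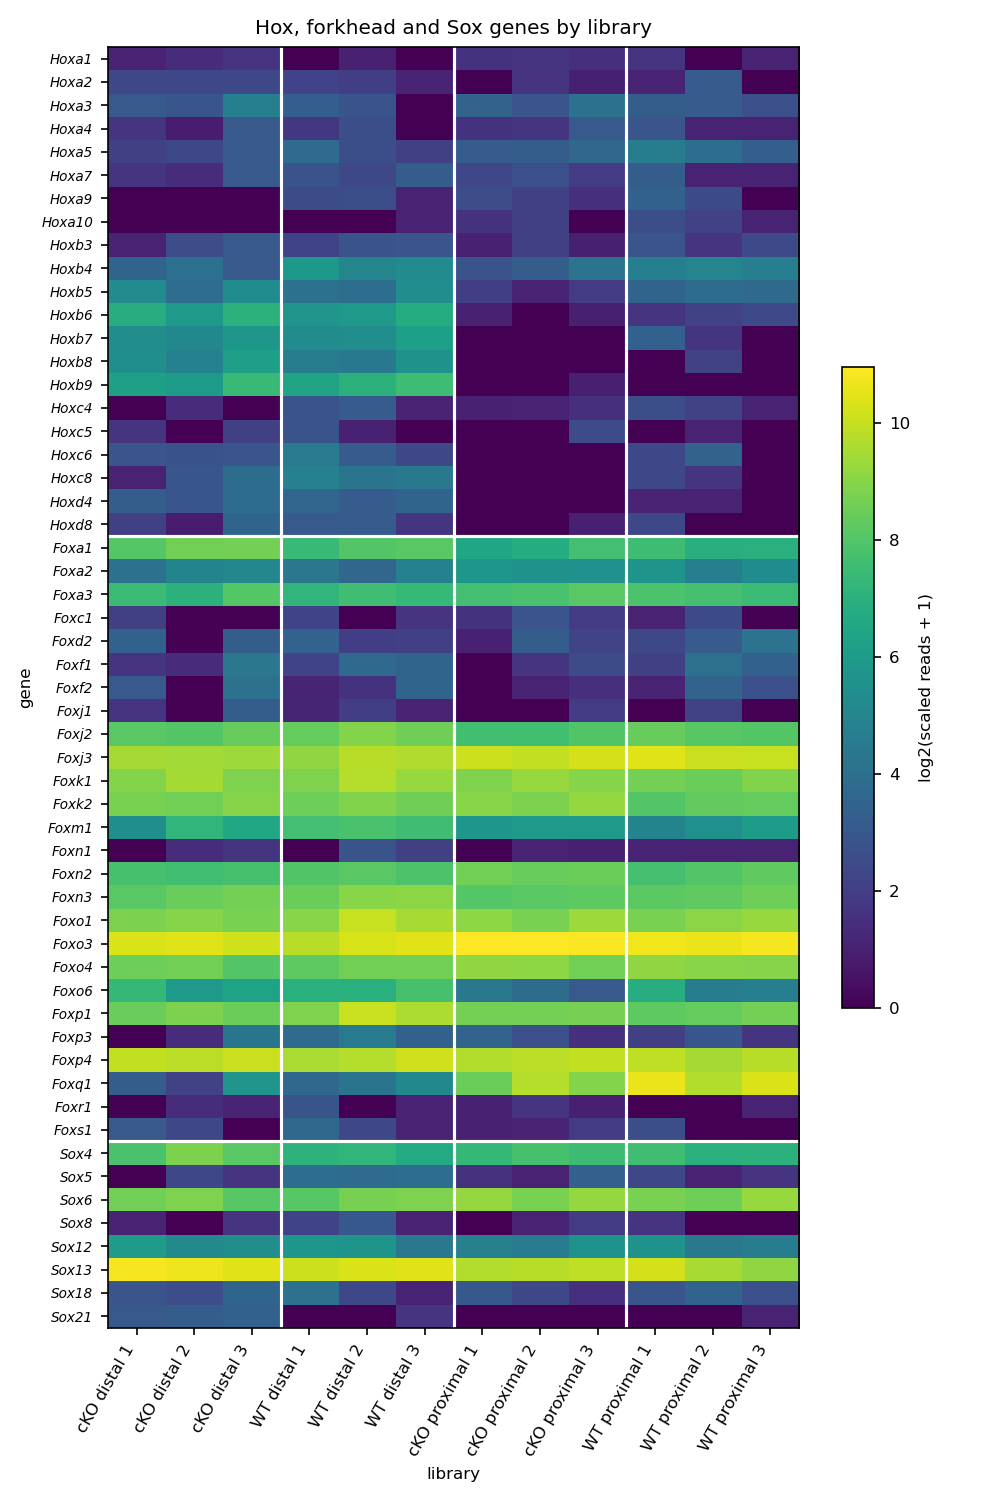
Levels of the 55 genes (rows, in 3 family blocks) in the 12 libraries (columns), as log2(scaled reads + 1) from 0 (dark) upward. Hoxb6 to Hoxb9 stand at 20.6 scaled reads or more in the 6 distal libraries and at 9.47 or less in the 6 proximal libraries, while Foxq1 stands at 51.0 or less in the distal and at 362.5 or more in the proximal libraries.

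Promoter sequences are shown for 4 Hox genes, picked with their values known: Hoxb8 and Hoxd4, which were higher distally in both genotypes, and Hoxa7 and Hoxb4, which passed between segments in neither. Each is the 250 bases before the RefSeq start on GRCm38.p6, at chr11:96281655-96281904 for Hoxb8, chr2:74721728-74721977 for Hoxd4 and chr11:96318017-96318266 for Hoxb4, all on the plus strand, and at chr6:52218574-52218823 on the minus strand for Hoxa7. Capitals mark TTTATG, the core that CDX proteins bind, on either strand (CATAAA is its reverse complement), since CDX proteins are known regulators of Hox genes.
Hoxb8: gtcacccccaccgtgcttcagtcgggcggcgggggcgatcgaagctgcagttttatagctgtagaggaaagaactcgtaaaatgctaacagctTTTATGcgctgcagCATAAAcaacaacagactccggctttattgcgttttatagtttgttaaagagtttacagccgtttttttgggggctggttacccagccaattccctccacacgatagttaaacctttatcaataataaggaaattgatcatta
Hoxd4: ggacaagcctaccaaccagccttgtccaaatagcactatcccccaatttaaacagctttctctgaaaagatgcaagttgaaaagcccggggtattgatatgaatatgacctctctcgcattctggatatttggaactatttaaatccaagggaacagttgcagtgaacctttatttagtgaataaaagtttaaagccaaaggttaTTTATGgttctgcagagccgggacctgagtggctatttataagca
Hoxa7: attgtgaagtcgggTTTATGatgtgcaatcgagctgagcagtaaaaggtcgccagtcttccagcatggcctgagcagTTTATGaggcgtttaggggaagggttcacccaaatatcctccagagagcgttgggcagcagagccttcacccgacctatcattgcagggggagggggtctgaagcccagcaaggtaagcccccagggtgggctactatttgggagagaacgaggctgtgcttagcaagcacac
Hoxb4: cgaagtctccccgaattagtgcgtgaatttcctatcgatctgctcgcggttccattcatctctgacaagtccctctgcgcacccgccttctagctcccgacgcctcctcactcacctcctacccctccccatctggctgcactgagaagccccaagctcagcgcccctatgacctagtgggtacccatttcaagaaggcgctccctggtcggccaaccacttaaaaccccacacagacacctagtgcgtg
Hoxb8 held 2 matches, Hoxd4 held 1, Hoxa7 held 2 and Hoxb4 held 0. Hoxa7 had log2 fold changes between segments of -0.20 in cKO and 0.77 in WT (SE 0.54 each, adjusted p = 0.869 and 0.335), so a match was found both in genes that passed and in a gene that did not. Of all 32851 windows of this length 10.8% held TTTATG, and 4 of 46 windows of the 35 members with an entry did, those of Hoxa7, Hoxb8, Hoxd4 and Foxp1. Among the same 46 windows, the HOX-PBX core TGATTNAT was in 1 (2.82% of all windows), the forkhead core TGTTTAC in 2 (3.17%), the SMAD core GGCGCC in 7 (9.59%), the SMAD box GTCTAGAC in 0 (0.167%) and the Sox core ACAATNG in 5 (6.91%), on either strand. Median GC content was 58.8% in members' windows and 52.4% in all windows. A match is a description of letters only, and the share of members was not tested against the share of all windows. Hoxb5, Hoxb6, Hoxb7, Hoxb9 and Foxq1 have no entry.

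The first comparison asked how distal tissue differed from proximal tissue in each genotype. The more posterior of the measured Hox B genes, Hoxb6, Hoxb7, Hoxb8 and Hoxb9, were higher in distal tissue in both genotypes, and Hoxb5 was so in cKO. Foxq1 was far lower in distal tissue in both. In cKO 16 of the 55 genes passed (29.1%, 12 higher and 4 lower), against 10.5% of all genes (4.16% higher and 6.36% lower). In WT 13 passed (23.6%, 10 higher and 3 lower), against 24.1% of all genes (11.9% higher and 12.2% lower). The 2 comparisons share no library. They shared 10 of these genes, all with the same sign, which was 62.5% of those in cKO and 76.9% of those in WT, while over all genes the shared calls made up 68.1% and 29.7%. By family, 8 of 21 Hox genes rose in cKO and 6 of 21 in WT, and 0 fell in either. The median log2 fold change of the Hox genes was 0.72 in cKO (7 genes with a group at 0) and 0.64 in WT (1 such gene). Over all genes the medians were -0.02 and 0.04. A gene with a group at 0 was set at its bound, or at 0 where the other did not exceed 3 reads per library.

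Hoxb9, the most posterior measured gene of the cluster, lies at chr11:96271457-96276595 in mm10. It had 74.2, 62.2 and 165 scaled reads in cKO distal libraries and 82.8, 132 and 186 in WT distal libraries. Of the 6 proximal libraries 5 held 0 reads, and cKO proximal library 3 held 0.932 scaled reads, which is 1 read. The distal and proximal values did not overlap in either genotype. In cKO the log2 fold change was 5.36 (SE 0.44, adjusted p = 3.04e-06), and the ratio of summed reads, 300 against 1, was 292 with an exact 95% counting interval of 52 to 11600. In WT it was 5.95 (SE 0.44, adjusted p = 6.22e-07), and the distal mean was at least 41-fold higher than a floor of 3 reads per library. Such intervals and floors cover counting error only.

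Its neighbours showed the same split. Hoxb8 had 43.4, 27.4 and 71.2 scaled reads in cKO distal and 23.1, 20.6 and 48.5 in WT distal libraries, against 0 in each cKO proximal library and 0, 3.37 and 0 in WT proximal libraries. It rose by a log2 fold change of 4.52 in cKO (SE 0.50, at least 15.8-fold) and 3.42 in WT (SE 0.50), where 85 reads against 3 gave a ratio of 28.6 (9.47 to 142). Hoxb7 had 41.3, 34.0 and 55.3 in cKO distal and 39.0, 40.1 and 71.7 in WT distal libraries, against 0 in each cKO proximal library and 9.47, 2.25 and 0 in WT proximal libraries. No distal value of either gene overlapped a proximal one. Hoxb7 rose by 4.48 in cKO (SE 0.53, at least 14.5-fold) and 3.42 in WT (SE 0.53). Hoxb6 had 113, 58.9 and 129.7 in cKO distal and 51.1, 60.6 and 109.6 in WT distal libraries, against 1.01, 0 and 0.932 in cKO proximal and 2.1, 3.37 and 4.3 in WT proximal libraries. It rose by 5.22 in cKO (SE 0.42), where 300 reads against 2 gave a ratio of 146 (40.1 to 1210), and by 3.78 in WT (SE 0.42). The calls of Hoxb6 to Hoxb9 in both genotypes held under all 22 alternatives.

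The 3 most anterior measured genes of the cluster differed less or not detectably between segments. Hoxb5 had 38.1, 14.1 and 39.3 scaled reads in cKO distal and 15.8, 14.4 and 40.1 in WT distal libraries, against 3.03, 1.06 and 2.80 in cKO proximal and 10.5, 13.5 and 12.9 in WT proximal libraries. It rose in cKO (log2 fold change 2.83, SE 0.48, adjusted p = 0.00147), and in WT its value was 0.70 (SE 0.48, adjusted p = 0.329). The difference between these values, 2.13, had an adjusted p of 0.164 and did not pass. Hoxb4 had values of 0.09 in cKO (SE 0.41) and 0.56 in WT (SE 0.41), neither of which passed. Hoxb3, the last measured gene of the cluster, had values of 0.72 in cKO and 0.26 in WT (SE 0.48 each), which did not pass either. It stood between 0.932 and 7.44 scaled reads in all 12 libraries, and 52.9% of its exon bases are shared with the antisense gene Hoxb3os.

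**Figure D2:**
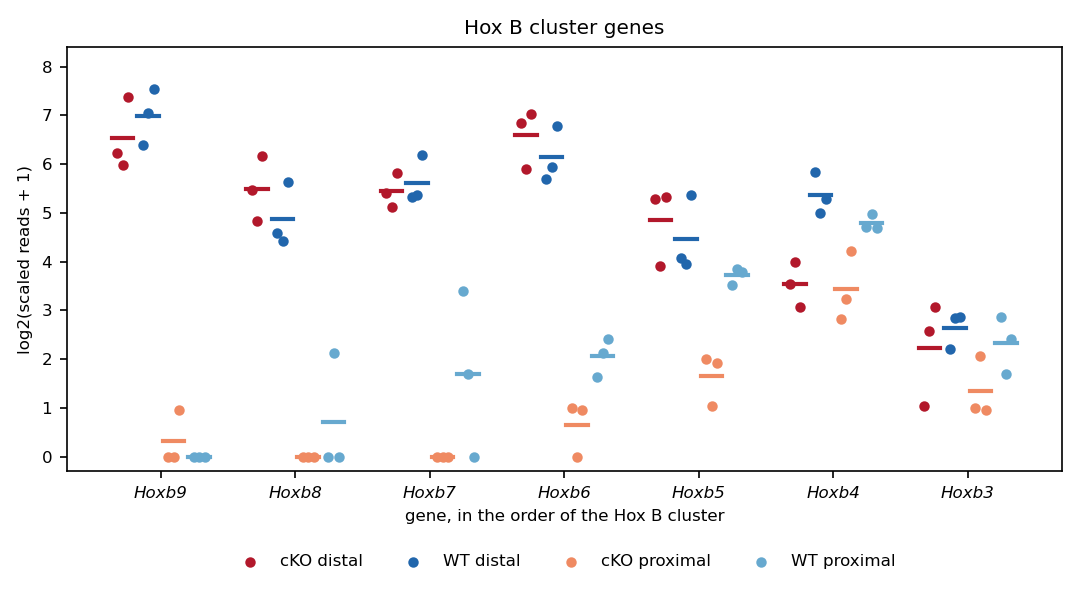
Scaled reads of the 7 measured Hox B genes, as log2(scaled reads + 1), in their order along the cluster; points are libraries, bars are group means of 3 libraries. Hoxb9 to Hoxb6 stand apart by segment in both genotypes, Hoxb5 stands at 1.06 to 3.03 scaled reads in cKO proximal libraries alone, and every cKO value of Hoxb4 lies below the WT values of its segment.

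In the other clusters, Hoxd4 had 8.48, 6.64 and 13.8 scaled reads in cKO distal and 11.0, 8.22 and 10.5 in WT distal libraries, against 0 in each cKO proximal library and 1.05, 1.12 and 0 in WT proximal libraries. It rose by 2.49 in cKO (SE 0.39, at least 3.21-fold) and 2.12 in WT (SE 0.39), where 27 reads against 2 gave a ratio of 13.6 (3.43 to 118). Hoxd3, Gm28230 and Hoxd3os1 share 52.3% of its exon bases, so its reads cannot be assigned to it alone. Hoxc8 rose by 1.90 in cKO (SE 0.57, at least 2.39-fold) and 2.59 in WT (SE 0.57), with values of 1.06, 6.64 and 13.8 in cKO distal, 26.8, 17.5 and 20.0 in WT distal, 0 in each cKO proximal and 4.21, 2.25 and 0 in WT proximal libraries. Hoxc6 rose by 2.03 in cKO (SE 0.61, at least 2.06-fold). It had 6.36, 5.81 and 6.38 in cKO distal and 21.9, 8.22 and 4.22 in WT distal libraries, against 0 in each cKO proximal library and 4.21, 10.1 and 0 in WT proximal libraries. Its WT segments overlapped (1.10, SE 0.61, adjusted p = 0.218). The cKO calls of Hoxc6 and Hoxc8 each ended under 13 of 21 alternatives. Each library left out of the cKO groups ended the Hoxc6 call, as did WT proximal 1 or WT distal 2 (adjusted p 0.0542 to 0.124), and the Hoxc8 call ended without any cKO proximal library, cKO distal 2 or 3, WT proximal 2 or any WT distal library (0.0502 to 0.174).

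Genes of cluster A did not pass between segments. Their 8 members summed to 20.1, 19.1 and 54.2 scaled reads in cKO distal, 39.0, 29.8 and 14.8 in WT distal, 33.3, 32.8 and 41.9 in cKO proximal and 64.2, 40.4 and 18.3 in WT proximal libraries. In the fit reported throughout, 0 of the 8 passed in any comparison. Among the alternatives, Hoxa3 passed between genotypes in the distal segment with the mitochondrial share as covariate, Hoxa9 passed there with DESeq2 and without WT proximal 3 or WT distal 3, and Hoxa5 passed between WT segments without WT distal 1. Hoxa9 and Hoxa10, the most posterior measured genes of cluster A, were at 0 in all 3 cKO distal libraries. Hoxb9 stood at 62.2 or more in that group. At an unadjusted p under 0.05, 1 cluster A gene was counted in each segment comparison and in the distal genotype comparison. Over all 17175 genes the counts were 4143 between segments in cKO, 6063 in WT and 6335 in the distal genotype comparison.

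Partners and regulators of Hox proteins were followed in a list of 26 measured genes, of which 3 rose and 5 fell distally in cKO (30.8%, against 10.5% of all genes) and 2 rose and 5 fell in WT (26.9%, against 24.1%). Pdx1, the duodenal homeobox factor, averaged 2.67 ± 1.37 scaled reads in cKO distal and 1161 ± 133 in cKO proximal tissue, and 9.10 ± 12.7 in WT distal and 1262 ± 347 in WT proximal tissue (SD, n = 3). Onecut2 had 10.4 ± 6.10 in cKO distal and 1629 ± 185 in cKO proximal tissue, and 13.8 ± 18.4 in WT distal and 1088 ± 54.7 in WT proximal tissue. Each of these 4 differences passed (limma adjusted p at most 4.13e-06). Markers of fibroblasts, cells in which gut Hox genes are also known to be active, summed to 16474 to 27665 in cKO distal, 15208 to 33076 in WT distal, 9030 to 10415 in cKO proximal and 7549 to 28885 in WT proximal libraries, and 1 of 19 rose distally in cKO and 0 in WT. Much of that sum was Dpep1, which epithelium can also express, with 9690 to 21363, 3761 to 11773, 5583 to 6309 and 2839 to 5105 in the same order of groups, and the other 18 summed to 6302 to 7609, 3435 to 29276, 2721 to 4833 and 4240 to 23780. The list's median log2 fold change was 0.99 in cKO and 0.30 in WT. Their part in the Hox values was not tested.

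Among forkhead genes Foxq1 differed most between segments. Foxq1, which in the mouse stomach is needed for the mucin gene Muc5ac, lies at chr13:31556134-31560976. It had 8.48, 3.32 and 51.0 scaled reads in cKO distal and 12.2, 17.5 and 33.7 in WT distal libraries, against 362.5, 837 and 476 in cKO proximal and 1565, 817 and 1288 in WT proximal libraries. The segments did not overlap in either genotype. It fell by 5.21 on the log2 scale in cKO (SE 0.65, adjusted p = 0.000121) and by 5.78 in WT (SE 0.65, adjusted p = 3.22e-05), and both calls held under all 22 alternatives. Of its exon bases 66.1% are shared with A530084C06Rik on the opposite strand, and whether reads were counted by strand is not given, so the reads of the pair may be mixed. Markers of stomach and Brunner glands, the mucous glands of the duodenum, summed to 11.6 to 34.0 in cKO distal, 9.25 to 37.9 in WT distal, 226 to 781 in cKO proximal and 100 to 2115 in WT proximal libraries. Of these 7 markers 2 fell distally in cKO (28.6%, while 6.36% of all genes fell) and 5 in WT (71.4%, while 12.2% fell). Their part in the Foxq1 values was not tested.

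The 3 FoxA genes, pioneer factors of the gut epithelium, did not move alike. Foxa1 had 264, 388 and 402 scaled reads in cKO distal and 167, 262 and 279 in WT distal libraries, against 86.8, 110.2 and 202 in cKO proximal and 186, 114 and 121 in WT proximal libraries. It rose distally in cKO (log2 fold change 1.45, SE 0.32, adjusted p = 0.00931), a call that ended without cKO proximal 1 (adjusted p = 0.0556), and its value in WT was 0.74 (SE 0.32, adjusted p = 0.114). Foxa2 had negative values, -0.91 in cKO and -0.94 in WT (SE 0.39 each, adjusted p = 0.172 and 0.103). It had 15.9, 29.9 and 33.0 in cKO distal and 19.5, 11.3 and 27.4 in WT distal libraries, against 52.5, 48.7 and 45.7 in cKO proximal and 50.5, 25.8 and 38.7 in WT proximal libraries, and only the cKO segments did not overlap. Foxa3 had 177, 129 and 270.1 in cKO distal and 146, 190.1 and 159 in WT distal libraries, against 201, 226 and 284 in cKO proximal and 228, 211 and 174 in WT proximal libraries, with fold changes of -0.35 in cKO and -0.30 in WT that did not pass. Of 12 known partners and targets of FoxA proteins, 3 rose distally in cKO (25% of the list, against 10.5% of all genes). Among them was the glucagon gene Gcg (0.99, adjusted p = 0.0265), and 0 passed in WT, against 24.1% of all genes. Muc2, Agr2, Spdef and Tff3 of this list are also in the goblet cell list. Elf3 is also in the epithelial list and Isl1 in the enteroendocrine list.

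FoxO genes were found in both directions. Foxo6 had 157, 59.7 and 80.8 scaled reads in cKO distal and 124, 121 and 214 in WT distal libraries, against 20.2, 13.8 and 7.46 in cKO proximal and 112, 23.6 and 25.8 in WT proximal libraries. It rose by 2.65 in cKO (SE 0.55, adjusted p = 0.00632) and 1.79 in WT (SE 0.55, adjusted p = 0.0290). WT proximal 1 alone stood near the distal values. The WT call ended in the edgeR fit (adjusted p = 0.0597), without WT proximal 2 or 3 (0.119 and 0.105) and without WT distal 1, 2 or 3 (0.0507, 0.0592 and 0.0863). Foxo3, the most abundant of the FoxO genes, was lower distally, with 1306, 1385 and 1149 in cKO distal against 1979, 1960.0 and 1915 in cKO proximal libraries, and 882, 1236 and 1415 in WT distal against 1680.0, 1602 and 1795 in WT proximal libraries. It fell by 0.61 in cKO (SE 0.17, adjusted p = 0.0376) and by 0.55 in WT (SE 0.17, adjusted p = 0.0339). Leaving out any cKO library, or WT proximal 2 or 3, ended the cKO call (0.0525 to 0.121), and leaving out any WT proximal library, WT distal 1 or 2 or cKO proximal 1 ended the WT call (0.051 to 0.108), as did the mitochondrial share as covariate (0.0826). Foxo4 had values of -0.56 in cKO and -0.52 in WT (SE 0.20 each, adjusted p = 0.100 and 0.0795), and passed in both genotypes with the sample name as a block. In a list of 23 FoxO targets and regulators, 0 rose and 1 fell distally in cKO (4.35%, against 10.5% of all genes). In WT 3 rose and 3 fell (26.1%, near the 24.1% of all genes). Pdk4, a FoxO target that limits glucose oxidation, averaged 109.5 ± 52.5 in cKO distal, 19.7 ± 1.13 in WT distal, 775 ± 84.8 in cKO proximal and 675 ± 119 in WT proximal tissue.

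Foxm1 and Foxp1 rose distally in WT, and their cKO values did not pass. In cKO Foxm1 had 42.4, 148 and 91.4 scaled reads in distal against 53.5, 60.4 and 60.6 in proximal libraries (log2 fold change 0.51, SE 0.38, adjusted p = 0.468). In WT it had 202, 225 and 189.7 in distal against 29.5, 43.8 and 63.4 in proximal libraries (2.18, SE 0.38, adjusted p = 0.00115). Only the WT segments stood apart. Foxp1, known for its role in B cell development, had 346, 437 and 364 in cKO distal against 402, 405 and 419 in cKO proximal libraries (-0.10, SE 0.25, adjusted p = 0.854). In WT it had 450.5, 1059 and 769.5 in distal against 304, 330.0 and 403 in proximal libraries (1.06, SE 0.25, adjusted p = 0.00729). Both WT calls held under all 22 alternatives. Cell cycle markers summed to 2631 to 5599 in cKO distal, 6902 to 8361 in WT distal, 2043 to 2260 in cKO proximal and 1885 to 2485 in WT proximal libraries, and 8 of 20 rose distally in cKO and 19 of 20 in WT. Those made up 40% of the list in cKO and 95% in WT. Of 12 FoxM1 targets 4 rose in cKO (33.3%) and 11 in WT (91.7%), all 12 of which are also in the cell cycle list. Over all genes 4.16% rose distally in cKO and 11.9% in WT. Genes that passed in either direction were 10.5% in cKO and 24.1% in WT, so calls were fewer in cKO in general. B cell markers summed to 188 to 617 in cKO distal, 9294 to 26724 in WT distal, 274 to 524 in cKO proximal and 822 to 4165 in WT proximal libraries, and 0 of 12 rose distally in cKO and 12 of 12 in WT. The part of B cells and of dividing cells in the Foxm1 and Foxp1 values was not tested.

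Smaller changes were those of Foxj3 and Foxn2. Foxj3 had 715, 689.5 and 657 scaled reads in cKO distal against 1119, 983 and 1201 in cKO proximal libraries, and 566, 863 and 806 in WT distal against 1383, 1071 and 1041 in WT proximal libraries. It fell by 0.67 in cKO (SE 0.18, adjusted p = 0.0292) and by 0.65 in WT (SE 0.18, adjusted p = 0.0179). The cKO call ended without any cKO distal library or cKO proximal 1 or 3 (0.0545 to 0.112), and the WT call without WT proximal 1 (0.0808) or WT distal 1 (0.0604). Foxn2 fell in cKO by 0.77 (SE 0.18, adjusted p = 0.0151), with 219, 199 and 215 in cKO distal against 398, 334 and 354 in cKO proximal libraries, and its value in WT was 0.01 (SE 0.18), with 252, 286 and 234 in WT distal against 208, 257 and 311 in WT proximal libraries. Its cKO call ended without cKO proximal 1 (0.0821) or cKO distal 2 (0.0554).

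Of the Sox genes, 2 of 8 passed between segments in cKO, against 10.5% of all genes, and 1 of 8 in WT, against 24.1%. Sox4 had a value of 0.73 in cKO (SE 0.27, adjusted p = 0.108). It passed there with the sample name as a block, and with DESeq2, which makes 3 of 8. Of all genes 15.1% and 16.1% passed in those fits. Sox21, a repressor of the SoxB group known from neural progenitors, lies at chr14:118233232-118237030. It had 7.42, 8.3 and 9.57 scaled reads in cKO distal and 0, 0 and 2.11 in WT distal libraries, against 0 in each cKO proximal library and 0, 0 and 1.07 in WT proximal libraries. Only the 3 cKO distal libraries stood above 2.11. It rose distally in cKO by 2.38 (SE 0.40, adjusted p = 0.00150, at least 2.81-fold), and its value in WT was 0.15 (SE 0.40, adjusted p = 0.831). Sox13, a SoxD gene known from gamma-delta T cells in mice, had 1758, 1625 and 1373 in cKO distal against 814, 880.4 and 949 in cKO proximal libraries, and 1101, 1269 and 1414 in WT distal against 1230.0, 743 and 552 in WT proximal libraries. It rose in cKO (0.84, SE 0.24, adjusted p = 0.0357), and its WT value was 0.65 (SE 0.24, adjusted p = 0.0583). The cKO call ended without any cKO proximal library or cKO distal 1 or 2 (0.0721 to 0.128). Sox5 rose in WT (1.89, SE 0.54, adjusted p = 0.0201), with values given below, and the call ended in the edgeR fit (0.0625), without WT proximal 2 or 3 (0.0765 and 0.0512) and without WT distal 2 (0.0532). Without both cKO libraries numbered 1, 11 members passed between segments in cKO, where 5.02% of all genes did. Foxj3 (0.148), Foxn2 (0.126), Foxo3 (0.178), Hoxc6 (0.205) and Sox13 (0.254) did not pass there, while Foxo3 also did not pass in WT (0.0628). T cell markers summed to 2301 to 4871 in cKO distal, 2518 to 5443 in WT distal, 9790 to 22001 in cKO proximal and 13474 to 35236 in WT proximal libraries, and their part in the Sox13 values was not tested. Sox18, the measured SoxF gene and a factor of blood and lymph vessels, had 6.36, 4.98 and 10.6 in cKO distal and 15.8, 4.11 and 1.05 in WT distal libraries, against 7.07, 4.24 and 1.86 in cKO proximal and 6.31, 10.1 and 5.37 in WT proximal libraries, and passed in no comparison.

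**Figure D3:**
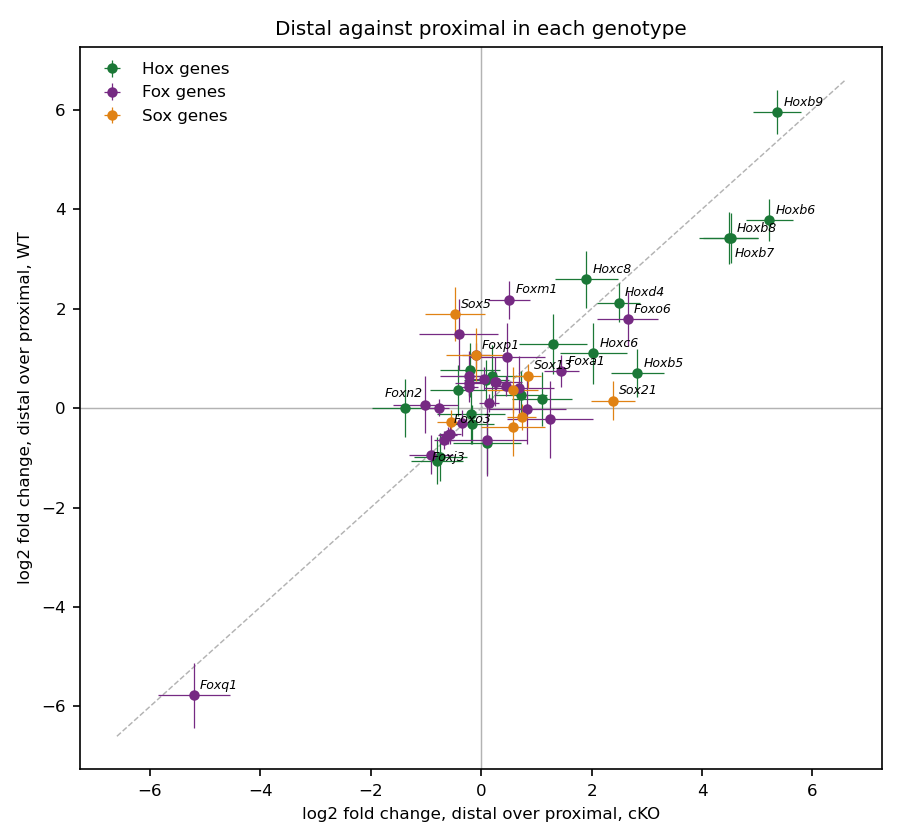
Log2 fold change of distal over proximal tissue for the 55 genes in cKO (horizontal axis) and WT (vertical axis), with standard errors as bars and names for genes that passed in either; the dashed line marks equal values. Hoxb6 to Hoxb9 and Foxq1 lie far out near the line, Hoxb5 and Sox21 lie towards the cKO axis, and Foxm1, Foxp1 and Sox5 towards the WT axis.

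**Figure D4:**
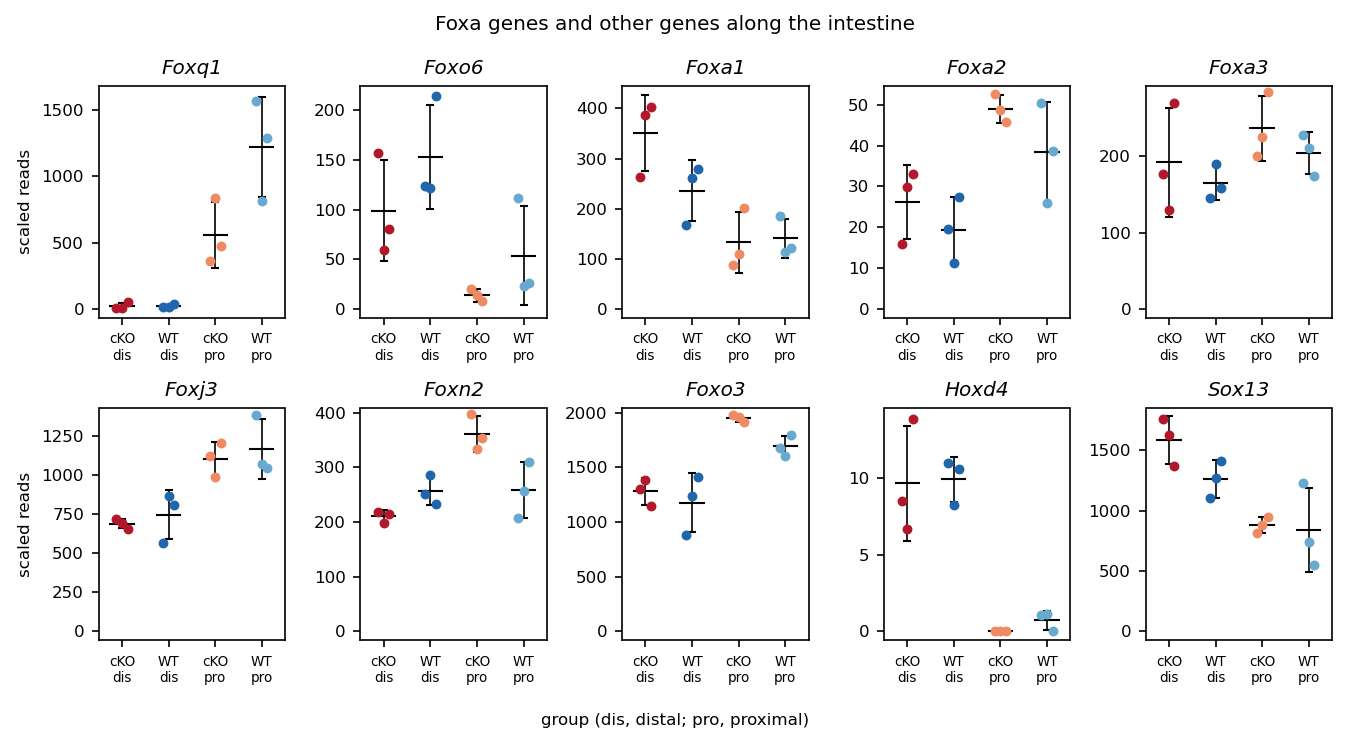
Scaled reads of 10 genes in the 12 libraries by group; points are libraries, horizontal lines are means and vertical bars are SD (n = 3). Foxq1 stands at 3.32 to 51.0 in the 6 distal libraries and at 362.5 to 1565 in the 6 proximal libraries, and Foxo6 is low in cKO proximal tissue, at 7.46 to 20.2.

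The second comparison asked what differed between cKO and WT in the distal segment. Here 8 of the 55 genes passed (14.5%, 2 higher and 6 lower), against 25% of all genes (13.3% higher and 11.7% lower). Sox21 and Sox4 rose in cKO, and Hoxb4, Hoxc8, Foxm1, Foxo1, Foxp1 and Sox5 fell. The posterior Hox B genes that set the segments apart did not pass: Hoxb6 had a log2 fold change of 0.44, Hoxb8 of 0.58, Hoxb7 of -0.17 and Hoxb9 of -0.46, with standard errors of 0.42 to 0.53. The median over the 21 Hox genes was -0.28 as fitted and -0.17 with 2 genes at a bound or at 0. Over the 26 Fox genes it was -0.34 and over the 8 Sox genes 0.30, beside 0.06 over all genes. With the mitochondrial share as a covariate, 2 members passed, Foxp1 (lower) and Hoxa3 (higher), so 7 of the 8 calls ended in that fit, while 8.10% of all genes passed.

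Sox4, a SoxC gene that in mouse intestine has a role in secretory progenitors, had 222, 446 and 287 scaled reads in cKO distal against 135, 149 and 103 in WT distal libraries. The groups did not overlap, and the log2 fold change was 1.24 (SE 0.27, adjusted p = 0.00468). It ended only with the mitochondrial share as a covariate (adjusted p = 0.0671). On the opposite strand, Gm26735 shares exon bases with it (54.6% of bases shared). In the same comparison 0 of 12 tuft cell markers rose and 4 fell (33.3% of the list, against 25% of all genes). Of 15 enteroendocrine markers 1 rose and 3 fell (26.7%). Of goblet cell markers 2 of 8 rose and 0 fell (25%), with a median log2 fold change of 0.90. The enteroendocrine and goblet shares are near that of all genes. Of epithelial markers 6 of 15 rose and 0 fell (40%), with a median of 0.68. The part of these cells in the Sox4 values was not tested. Sox21 rose by 1.97 (SE 0.40, adjusted p = 0.00319), with the values given above, and 26 reads against 2 gave a ratio of 11.5 (2.89 to 100). It did not pass in the DESeq2 fit (adjusted p = 0.105) or with the mitochondrial share as a covariate (0.0511). In the proximal segment Sox4 had 158, 215 and 181 in cKO against 189, 121 and 131 in WT libraries (0.34, SE 0.27, adjusted p = 0.475).

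Hoxb4, a Hox gene also known from blood progenitors, had 10.6, 14.9 and 7.44 scaled reads in cKO distal against 56.0, 30.8 and 38.0 in WT distal libraries. It fell by 1.75 on the log2 scale (SE 0.41, adjusted p = 0.00702). In the proximal segment its cKO libraries, at 6.06, 8.48 and 17.7, also lay below its WT libraries, at 25.3, 30.3 and 24.7 (-1.28, SE 0.41, adjusted p = 0.0702). That proximal difference passed in the DESeq2 fit and without cKO proximal 3. Hoxc8 fell by 1.63 (SE 0.57, adjusted p = 0.0490), and the call ended under 16 of 21 alternatives, the sample name as a block included (0.05). Only leaving out WT proximal 1 or 3 or cKO distal 3 kept it among the single libraries, and the other 9 gave adjusted p of 0.0616 to 0.238. B cell markers, which stood at 188 to 617 in cKO distal and 9294 to 26724 in WT distal libraries, fell in 12 of 12. Fibroblast markers rose in 1 of 19 and fell in 3 (21.1% of the list, against 25% of all genes). The part of these cells in the Hoxb4 and Hoxc8 values was not tested.

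Sox5, a SoxD gene known from cartilage, had 0, 4.15 and 2.13 scaled reads in cKO distal and 14.6, 13.4 and 14.8 in WT distal libraries, beside 2.02, 1.06 and 9.32 in cKO proximal and 4.21, 1.12 and 2.15 in WT proximal libraries. The 3 WT distal libraries stood above the other 9. It fell by 2.13 (SE 0.54, adjusted p = 0.0105), a call that ended without cKO distal 1 (0.0613). Foxp1, with the values given above, fell by 0.91 (SE 0.25, adjusted p = 0.0165), and the call ended without cKO distal 1 (0.0683) or WT distal 2 (0.0809). Foxo1, a FoxO gene that in lymphocytes controls homing receptors, had 439, 496 and 433 in cKO distal against 518, 1049 and 722 in WT distal libraries and fell by 0.68 (SE 0.24, adjusted p = 0.0499). In proximal libraries it had 551, 427 and 647 in cKO against 434, 522 and 607 in WT, which overlapped. The Foxo1 call ended without cKO proximal 1 or 3, WT proximal 2 or 3, any cKO distal library, or WT distal 2 or 3 (0.0533 to 0.221). Foxp3, the factor of regulatory T cells, had 0, 1.66 and 18.1 in cKO distal and 13.4, 21.6 and 9.49 in WT distal libraries (-1.63, SE 0.72, adjusted p = 0.117), beside 10.1, 5.3 and 1.86 in cKO proximal and 3.16, 6.74 and 2.15 in WT proximal libraries, and 31.5% of its exon bases are shared with other genes. Blk, Ms4a1, Tnfrsf13c and Pou2af1 were among the 12 B cell markers that fell, the last to 42.5 ± 27.2 in cKO, against 1968 ± 608 in WT distal tissue (SD, n = 3), and the part of B cells in the values of Sox5, Foxp1 and Foxo1 was not tested.

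Foxm1 fell by 1.28 (SE 0.38, adjusted p = 0.0258), with 42.4, 148 and 91.4 scaled reads in cKO distal against 202, 225 and 189.7 in WT distal libraries. The call ended without cKO distal 1 (0.127), WT distal 1 (0.0650) or WT distal 2 (0.0857). Of 12 FoxM1 targets 5 fell and 0 rose (41.7%, against 25% of all genes), among them Cdc25b, a phosphatase that starts mitosis, with 124.7 ± 19.5 in cKO and 482 ± 93.9 in WT distal tissue (-1.93, adjusted p = 6.86e-05), and the median over the 12 was -0.73. Of 20 cell cycle markers 9 fell. Without both cKO libraries numbered 1, 3 members passed, as did 12.6% of all genes. Foxm1 (0.159), Foxo1 (0.172), Foxp1 (0.0941), Hoxc8 (0.279) and Sox5 (0.0770) did not pass in that fit.

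Lists of genes that act with these factors are read here against the 25% of all genes that passed between genotypes in the distal segment. Of the 26 Hox partners and regulators 3 rose and 1 fell (15.4%, below that share): Cdx1, the caudal-type factor, had 3260 ± 429 scaled reads in cKO and 1706 ± 273 in WT (0.94, adjusted p = 0.00109), Isx, an intestinal homeobox factor, had 2329 ± 357 and 1210 ± 136 in the same order (0.94, adjusted p = 0.000925), and Meis3, a Hox cofactor, had 32.4 ± 4.53 in cKO and 105 ± 22.1 in WT (-1.63, adjusted p = 0.000842). The same 3 genes passed in the same direction in the proximal segment. Of 24 Polycomb and Trithorax genes, known keepers of Hox gene states, 1 rose and 7 fell (33.3%). Cbx7 had 53.4 ± 10.3 in cKO and 471.6 ± 178 in WT (-3.04, adjusted p = 5.57e-05), and Cbx6 had 55.2 ± 2.71 in cKO and 303.7 ± 52.1 in WT (-2.41, adjusted p = 4.75e-05). Of 12 FoxA partners and targets 5 rose (41.7%), led by Gcg with 270.7 ± 19.4 in cKO and 85.3 ± 18.7 in WT (1.66, adjusted p = 0.000506). Of 23 FoxO targets and regulators 3 rose and 7 fell (43.5%), with Pdk4 higher (2.26, adjusted p = 7e-05). Of 13 endothelial partners of SoxF proteins 1 rose and 2 fell (23.1%, near the share of all genes), and those that fell were Mef2c and Ets1, which lymphocytes also express. A further list held 10 genes, of the hedgehog pathway, which acts on Foxf1 and Foxf2 in gut mesenchyme, and of BMP and Wnt ligands. Of these, 2 rose (Ihh and Bmp4) and 1 fell (Wnt5a), which is 30% and also near the share of all genes. Only Ihh among these calls is a hedgehog gene. Foxf1 had 2.12, 1.66 and 19.1 in cKO distal and 3.65, 12.3 and 10.5 in WT distal libraries, against 0, 2.12 and 4.66 in cKO proximal and 3.16, 15.7 and 9.67 in WT proximal libraries. Foxf2 had 7.42, 0 and 15.9 in cKO distal and 1.22, 2.06 and 10.5 in WT distal libraries, against 0, 1.06 and 1.86 in cKO proximal and 1.05, 10.1 and 5.37 in WT proximal libraries. Neither passed in any comparison.

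**Figure D5:**
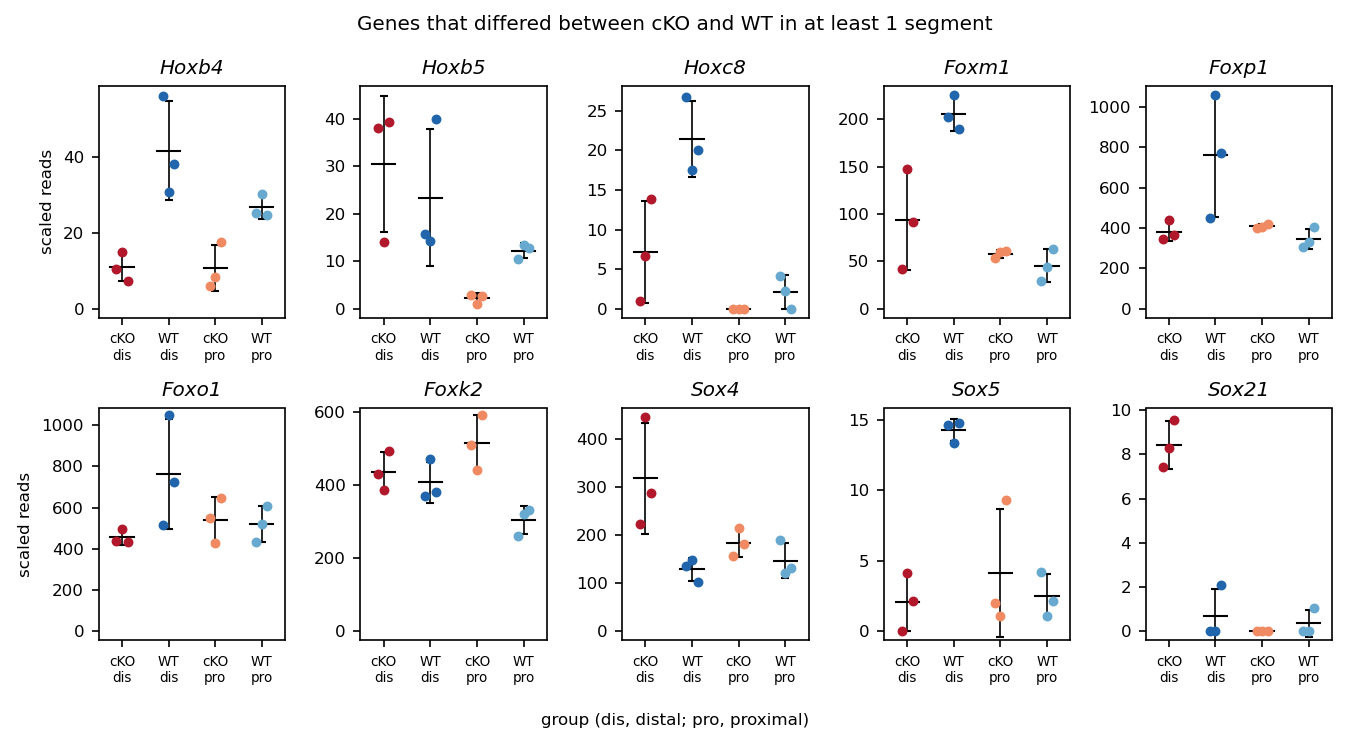
Scaled reads of the 10 genes that passed between cKO and WT in the distal or the proximal segment; points are libraries, horizontal lines are means and vertical bars are SD (n = 3). Hoxb4, Foxm1 and Sox5 are lower in all 3 cKO distal than in all 3 WT distal libraries, Sox4 and Sox21 are higher, and Hoxb5 stands at 1.06 to 3.03 in cKO proximal tissue, against 10.5 to 13.5 in WT proximal tissue.

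The third comparison asked what differed between cKO and WT in the proximal segment, where 2 of the 55 genes passed (3.64%, 1 higher and 1 lower), against 8.26% of all genes (4.21% higher and 4.05% lower). Foxk2, a forkhead gene that represses autophagy genes, had 511, 441 and 594 scaled reads in cKO against 259.9, 322 and 333 in WT proximal libraries and rose by 0.75 (SE 0.18, adjusted p = 0.0229). In distal libraries it had 432, 387 and 494 in cKO against 370.2, 472 and 383 in WT, which overlapped. Hoxb5 had 3.03, 1.06 and 2.80 in cKO against 10.5, 13.5 and 12.9 in WT proximal libraries and fell by 1.77 on the log2 scale (SE 0.48, adjusted p = 0.0375). Neither gene's groups overlapped. The Foxk2 call ended without cKO proximal 1 or 3 (0.0678 and 0.0934) or WT proximal 1 or 2 (0.0632 and 0.0581), and the Hoxb5 call without any library of these 2 groups (0.0557 to 0.138). Without both cKO libraries numbered 1 neither passed (0.0855 for Foxk2 and 0.0808 for Hoxb5). Among all genes that passed, 51.0% were higher in cKO, and 39.7% were with TMM scaling, which moved the median over all genes to -0.028 from 0.084.

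Of the 21 Hox genes, Hoxb5 passed in this comparison and 6 had a positive log2 fold change. The median of the 21 was -0.52 as fitted, beside 0.08 over all genes. It was -0.38 with 6 genes at a bound or at 0, of which only Hoxb7 and Hoxc6 had a bound. In the same comparison fibroblast markers had a median of -1.43 (0 of 19 rose and 1 fell, 5.26% of the list). Myeloid markers had a median of -1.72 (0 of 14 rose and 8 fell, 57.1%) and B cell markers of -2.08 (0 of 12 rose and 5 fell, 41.7%). Over all genes 8.26% passed, and the part of these cells in the Hox values was not tested. Summed over Hoxb5 to Hoxb9, a group put together after its values were seen, cKO proximal libraries had 4.04, 1.06 and 4.66 scaled reads and WT proximal libraries 22.1, 22.4 and 17.2, while cKO distal libraries had 310.4, 197 and 460.4 and WT distal libraries 212, 267 and 455. The distal sums overlapped between genotypes and the proximal sums did not. Hoxb6 (-1.01, adjusted p = 0.153), Hoxb7 (-1.24, adjusted p = 0.166) and Hoxc6 (-1.44, adjusted p = 0.157) had negative values that did not pass, and the last 2 were at 0 in all 3 cKO proximal libraries. Foxo6 (-1.54, SE 0.55, adjusted p = 0.0995) and Foxq1 (-1.17, SE 0.65, adjusted p = 0.284) did not pass either. DESeq2 called 6 members, with Foxo6, Hoxb4, Hoxb7 and Hoxc6 added, and voom weights called Foxq1 in place of Foxk2 and Hoxb5. Of all genes DESeq2 called 13.4% and voom weights 6.67% in this comparison.

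The last comparison asked whether the genotype difference itself differed between segments, as distal minus proximal. With limma 0 of the 55 genes passed, against 0.576% of all genes (0.175% higher and 0.402% lower). An unadjusted p under 0.05 was found for 10 of the 55 and for 2265 of all 17175 genes. edgeR called 0 of the 55, against 0.344% of all genes. DESeq2 called 1, Foxp1, against 3.46% of all genes. The smallest p was that of Sox21 (difference of log2 fold changes 2.23, SE 0.57, adjusted p = 0.0891), which passed without WT distal 3, and Foxp1 (-1.16, SE 0.35, adjusted p = 0.149) passed without WT distal 1. Hoxb5 (2.13, SE 0.68, adjusted p = 0.164), Sox5 (-2.37, SE 0.76, adjusted p = 0.167) and Foxm1 (-1.68, SE 0.54, adjusted p = 0.174) did not pass. No gene here is therefore shown to respond differently to genotype in the 2 segments.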

How the data were processed

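RNA of distal and proximal small intestine was sequenced in 12 libraries, 3 in each of 4 groups taken from the sample titles. RNA isolation used Trizol and library preparation an Ovation kit (RNA-Seq System V2), per the labels' protocols. According to the submitters' processing notes, STAR and DESeq2 1.28.1 were used with mm10; the STAR version, the annotation and the use of strand are not given in the sources used here. The deposited values are a signal, read counts scaled per library by the authors: 206100 of 206100 were whole multiples of a step specific to their column within 0.001 steps, and were taken as reads plus 1 over a factor for each library, so that whole reads (100% of values) could be recovered. Control columns were matched to WT titles by segment and number, and 0 sample columns stayed unused. The authors' comparison columns were not used.

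Here limma's trended empirical Bayes test (version 3.58.1, R 4.3.3) was applied to log2(value + 1) of the deposited values, with 4 group means and all 17175 genes, and p-values were adjusted by Benjamini-Hochberg over all genes. Alternatives were pseudocounts of 0.5 and 4, TMM scaling, a mean of at least 10 scaled reads, edgeR 4.0.16, DESeq2 1.42.0 and voom on the recovered reads, a replicate block, the mitochondrial share as covariate, and leaving out libraries. On the recovered reads edgeR called 1290, 4207, 4239, 1943 and 59 genes in the proximal genotype, distal genotype, WT segment, cKO segment and interaction comparisons. Numbers pair segments within a genotype: the labels share sample names, and deviations from group means correlated at 0.158, 0.215 and 0.323 in cKO and 0.314, 0.173 and 0.308 in WT. Between genotypes they pair nothing.

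Values are given by library for members that passed in any comparison and for Foxa1 to Foxa3, Foxf1, Foxf2, Foxm1, Foxo1, Foxp3, Sox4 and Sox18, and up to 3 passing genes of each companion list are named by smallest p, others being chosen after their values were seen. Members and lists were chosen with earlier results of these data known. Gene positions and exon overlaps are from GENCODE M21, which gave 55 of 55 members the same symbol, and promoters from RefSeq (GRCm38.p6), where 35 members had an entry.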

Additional observations from a re-analysis of the deposited data

How the results depend on the processing

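Of 3141 recomputed values of named genes under 22 alternatives, 2991 kept their side of the threshold, 131 no longer passed, 19 passed anew and 0 reversed. Many of these values belong to genes and comparisons that had not passed to begin with. For those, keeping their side is no sign of a stable call. Every call between genotypes ended under at least 1 alternative, and the calls that held under all of them were calls between segments. The number of members that passed between cKO and WT in the proximal segment was 2, and became 1 with a pseudocount of 4, 1 with voom weights (Foxq1), 6 with DESeq2, 0 with the mitochondrial share as covariate, 0 without both cKO libraries numbered 1, and 0 to 2 with single libraries left out. In the distal segment it was 8, and became 5 with a mean of at least 10 scaled reads (27 members tested), 2 with the mitochondrial share, 3 without both cKO libraries numbered 1, and 3 to 9 with single libraries left out, and it was 10 with TMM scaling, 9 with DESeq2 or voom and 6 with a pseudocount of 0.5. Between segments it was 16 in cKO (9 to 15 with single libraries left out, 11 without both cKO libraries numbered 1 and 12 to 18 otherwise) and 13 in WT (10 to 14, and 10 to 17 otherwise). For the interaction it was 0, and 1 with DESeq2 (0 to 1). Shares of all genes moved as well. In the proximal genotype comparison 8.26% of them passed, 13.4% with DESeq2, 2.36% with the mitochondrial share and 4.46% without both cKO libraries numbered 1. In the distal one the shares were 25%, 28.5%, 8.10% and 12.6% in that order. Between segments in cKO they were 10.5%, 16.1%, 11% and 5.02%, and in WT 24.1%, 28.2%, 19.5% and 21.4%. For the interaction 0.576% passed, and 3.46% with DESeq2. The filter removed members by construction. The causes of the other changes were not tested. With the sample name as a replicate block, 2 members passed between genotypes in the proximal and 7 in the distal segment, 18 between segments in cKO, 16 in WT and 0 in the interaction. Of all genes 8.46%, 25.2%, 15.1%, 28.7% and 2.68% passed in the same order. Under this pairing Hoxc8 was lost in the distal genotype comparison, Foxo4 and Sox4 were gained in cKO and Foxk1, Foxn3 and Foxo4 in WT, and no other member's call changed. Low counts limit the Hox genes most, with 15 of 21 averaging under 10 scaled reads.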
